A study of Arabidopsis thaliana with 8 samples.

Results

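MYB24 (AT5G40350), MYB57 (AT3G01530) and JMT (AT1G19640) are 3 Arabidopsis genes tied to jasmonate, and their transcripts were followed across 3 nectary types. They were chosen by name, each through the single ATH1 probe set that lists its locus and no other, and they make up 3 of the 22746 probe sets tested. The series compares nectaries of Columbia-0 plants dissected by hand, with no mutant and no treatment. Mature median nectaries (MMN, 2 pools, relatively non-secretory) and mature lateral nectaries (MLN, 3 pools, secretory) came from flowers at stages 14 to 15. Immature lateral nectaries (ILN, 3 pools, pre-secretory) came from flowers at stages 11 to 12. All plants were 30 to 35 days old, were grown under 16 h of light and 8 h of dark and were sampled 4 to 8 h after dawn, and a pool held 250 to 300 nectaries. Each pool came from different plants and gave 1 array. The labelling of MMN started from 250 ng of RNA and that of MLN and ILN from 500 ng, so that RNA input and the median position cannot be told apart.

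Jasmonate is a hormone made from membrane fatty acids in plastids and peroxisomes. Joined to isoleucine, it brings JAZ repressor proteins to the receptor COI1, which marks them for destruction and frees transcription factors such as MYC2 and its relatives. MYB24, MYB57 and their close relative MYB21 are R2R3 MYB transcription factors known from stamens, where jasmonate raises their transcripts and where they serve filament growth and pollen maturation. JMT encodes the enzyme that converts jasmonic acid to its volatile ester, methyl jasmonate, with S-adenosyl-methionine as methyl donor.

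The study also designed RT-PCR primers on the JMT transcript, a gene of chromosome 1. The paper names JMT among the genes whose RT-PCR backed the differences between nectary types on its arrays. Those RT-PCR results were not analysed here. The primers are shown as the study lists them for JMT, and their match to the transcript was not checked here. No base is set in capitals because none is singled out.
JMT forward primer: aacaaggagggtttagggttcggt
JMT reverse primer: agcaactctcttcggttgtgggat

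The values are probe set signals on a linear scale on which the median of every array is 100. Differences are log2 ratios with a 95% interval from limma, and a gene is called changed where its Benjamini-Hochberg adjusted p over all 22746 probe sets is under 0.05. The 3 genes and the courses looked at were picked with results of these arrays already known, so that their p-values describe the arrays and are not independent support. The 4 nectary markers CRC, SWEET9, cwINV4 and PIN6 were bright on all arrays, with sums of 52141 to 52392 in MMN, 47584 to 53460 in MLN and 36338 to 51146 in ILN, and none of the 4 was called in any comparison. Signals of replicate arrays correlated at 0.988 in MMN, at 0.976 to 0.982 in MLN and at 0.963 to 0.988 in ILN.

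MYB24 had its highest signals in the immature nectary. Its signal was 793 and 1096 in the 2 MMN pools, 370.1, 492 and 1517 in the 3 MLN pools, and 4972, 4037 and 3204 in the 3 ILN pools. Every ILN pool lay above every mature pool, a separation shown by 41% of all probe sets for MLN against ILN and by 50.8% for MMN against ILN, whereas the MMN values fell inside the wide range of MLN, which MLN 3 stretched upward. The means were 944.6 ± 213.8 in MMN, 793 ± 630.1 in MLN and 4071 ± 884 in ILN (SD, n = 2, 3 and 3).

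In MLN against ILN, MYB24 was 6.15-fold lower, with a log2 difference of -2.62 (SE 0.42, 95% interval -3.55 to -1.70, limma adjusted p = 0.00111). This is a comparison with many changes, since 23.6% of all probe sets were called in it, 12% higher and 11.5% lower in MLN, and MYB24 held place 115 by size among the 2619 that were lower. Leaving out MLN 3, the pool with the highest MLN signal, gave -3.23. In MMN against ILN, a comparison with 18.8% of probe sets called, 9.97% higher and 8.86% lower in MMN, MYB24 was 4.30-fold lower (log2 -2.10, SE 0.47, 95% interval -3.14 to -1.07, adjusted p = 0.00939), place 211 of 2016 lower ones. That call rests in part on MMN 1, without which the difference was -1.87 with an adjusted p of 0.0912. MMN and MLN were not told apart, with a log2 difference of 0.52 whose 95% interval ran from -0.52 to 1.55 (adjusted p = 0.899). The order of levels was therefore ILN first, and then the 2 mature types without a resolved order.

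MYB57 ran the other way with maturation. It gave 5423 and 5249 in MMN, 5779, 8089 and 5451 in MLN, and 345, 1965 and 709 in ILN. No ILN pool came near a mature one, and ILN 2 stood well above the other ILN pools. Separation from ILN was shown by 41% of all probe sets for MLN and by 50.8% for MMN. The means were 5336 ± 123 in MMN, 6439.7 ± 1438 in MLN and 1006 ± 850.2 in ILN (SD, n = 2, 3 and 3).

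MYB57 was 8.09-fold higher in MLN than in ILN (log2 3.02, SE 0.47, 95% interval 1.99 to 4.05, adjusted p = 0.000912), place 87 of the 2738 probe sets that were higher. In MMN it was 6.81-fold higher than in ILN (log2 2.77, SE 0.53, 95% interval 1.61 to 3.92, adjusted p = 0.0039), place 170 of 2268. The size of both rises depended on single ILN pools. Without ILN 1 they were 2.43 and 2.18 on the log2 scale in MLN and in MMN, and without ILN 2 they were 3.68 and 3.43. Both MMN pools lay below all 3 MLN pools, a separation that 25.1% of all probe sets showed in this comparison, but the difference of -0.25 had a 95% interval of -1.40 to 0.90 (adjusted p = 0.968). The order of levels was the 2 mature types, not resolved from each other, and then ILN. MYB24 and MYB57 thus changed in opposite directions in both mature types against ILN, and neither was called between the mature types. Signals of different probe sets are not on a common scale, so the level of MYB57 is not set against that of MYB24.

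JMT followed neither of these courses. Its signal was 1932 and 4763 in MMN, 14178, 12445 and 19214 in MLN, and 4749.7, 2689 and 3826 in ILN. The 3 MLN pools stood apart from all other pools, and the MMN pools bracketed the ILN pools. Separation of MLN was shown by 41% of all probe sets against ILN and by 25.1% against MMN. The means were 3348 ± 2002 in MMN, 15279 ± 3516 in MLN and 3755 ± 1032 in ILN (SD, n = 2, 3 and 3).

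In MMN against MLN, JMT was 4.95-fold lower (log2 -2.31, SE 0.36, 95% interval -3.10 to -1.51, limma adjusted p = 0.0127). Here only 0.73% of probe sets were called (0.572% higher and 0.158% lower in MMN), and with the replicate number as a block, which raised that count of calls to 275 against 166, the difference was -2.20 with an adjusted p of 0.025. JMT had the second largest drop of the 36 probe sets lower in MMN, 30 of which name 1 locus. The largest was that of MYB7 (log2 -2.40, adjusted p = 0.0034, and 0.051 without MMN 2), and AT5G54660 (-2.25), AT1G65810 (-2.16) and BZIP9 (-2.03) followed. The JMT call did not hold without MLN 1 (-2.35, adjusted p = 0.0537) or without MMN 1 (-1.66, adjusted p = 0.110), and without MMN 2 the difference was -2.96 with an adjusted p of 0.0104.

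In MLN against ILN, JMT was 4.11-fold higher (log2 2.04, SE 0.32, 95% interval 1.33 to 2.75, adjusted p = 0.00104), place 264 of the 2738 higher ones. MMN and ILN were not told apart, with a log2 difference of -0.27, a 95% interval of -1.07 to 0.53 and an adjusted p of 0.659. The sign of that difference turned to 0.38 when MMN 1 was left out. A description of JMT as biased to lateral nectaries could therefore be examined at the mature stage only. No immature median nectaries were sampled, so the 2 positions could not be compared before maturity. Immature lateral nectaries gave signals in the range of mature median ones, but these groups differ in both stage and position. JMT ranked 1016 and 251 by signal among 22810 probe sets in MMN, 12, 20 and 2 in MLN, and 216, 587 and 345 in ILN, so that it was a bright transcript on all arrays. On MLN 3 its 19214 lay just under the array's highest signal of 19221, and whether such signals are compressed was not tested.

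**Figure D1:**
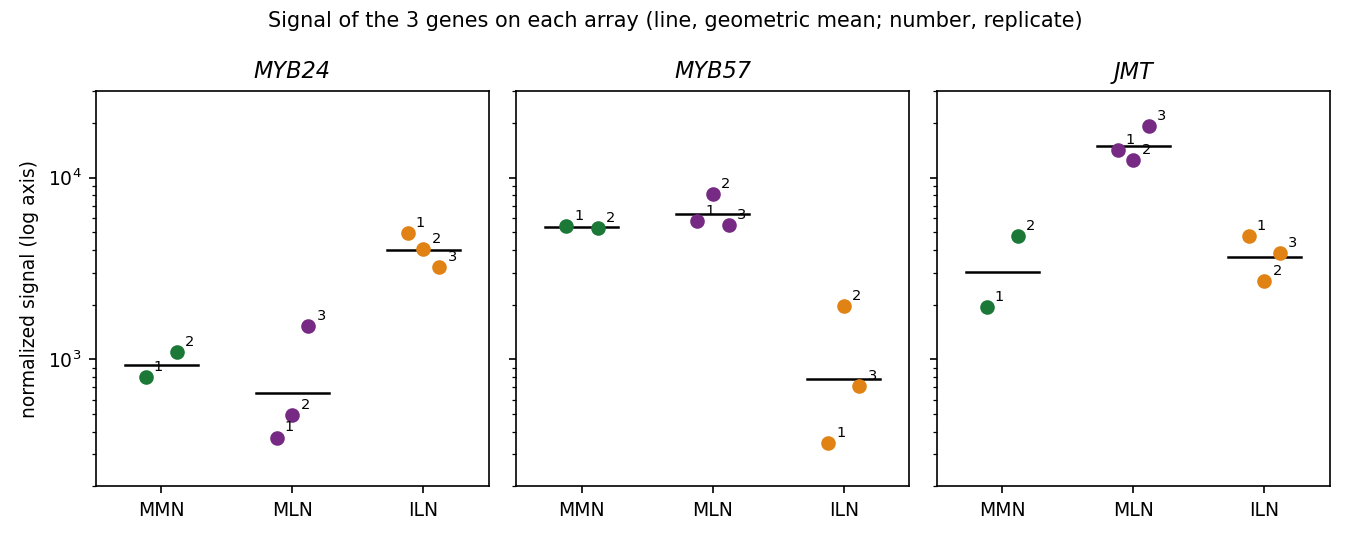
Normalized signal (log axis, array median 100) of MYB24, MYB57 and JMT on each array, with MMN, MLN and ILN from left to right, a line at the geometric mean and the replicate number beside each point. MYB24 is highest in ILN, MYB57 is lowest in ILN, and JMT is highest in MLN, where its 3 pools read 12445 to 19214.

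**Figure D2:**
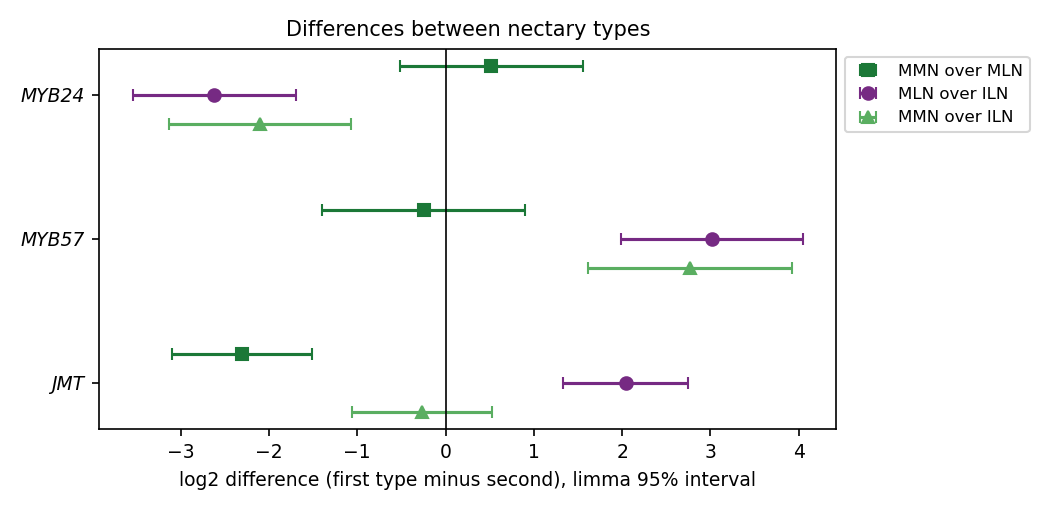
Log2 differences between nectary types for the 3 genes, with limma 95% intervals and a line at 0. MMN over MLN clears 0 for JMT alone, with an interval of -3.10 to -1.51, whereas MLN over ILN clears 0 for all 3 genes.

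Of 77 jasmonate genes in 6 lists grouped by role, 20 had a probe set of their own in the annotation used and the rest were not analysed here. Of these 20, 1 was higher and 5 were lower in MLN than in ILN and 14 were not called, so that 6 of 20 were called beside 23.6% of all probe sets. The median log2 difference of the 20 was -0.03, against 0.17 over all probe sets. In MMN against ILN none was higher and 4 were lower, beside 18.8% of all probe sets called, and 16 were not called. The lower genes of both comparisons include RGL1, a DELLA gene of gibberellin responses that was listed with the factors acting before the stamen MYB genes. With the replicate number as a block the same 4 were lower in MMN against ILN and JAZ12 and MYC4 were called higher. These were 6 in all, beside 4235 of all 22746 probe sets called with the block. In MMN against MLN none of the 20 was called by limma, beside 0.73% of all probe sets. In that comparison 1 of the 20 passed an unadjusted p under 0.05 in the methods' t-test, beside 1663 of all 22746 probe sets. The median difference was 0.08 in MMN against ILN and 0.24 in MMN against MLN, beside 0.11 and -0.03 over all probe sets. Calls in either direction were about as frequent as among all probe sets, while the 5 and 4 lower genes stand beside 11.5% of all probe sets in MLN against ILN and 8.86% in MMN against ILN. The annotation drew in part on the study's own gene tables, some of which list genes by fold change. A gene could thus be measured because it changed, so these shares are not like for like. Which of the 20 entered that way was not tested.

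None of the measured hormone synthesis genes was called. OPCL1, the ligase that activates a jasmonate precursor for chain shortening, and ACX1, AIM1 and PKT3, which carry out that shortening in peroxisomes, were the 4 of 18 synthesis genes measured. Their log2 differences in MLN against ILN ran from -0.59 for OPCL1 to 0.57 for AIM1. ACX1, an acyl-CoA oxidase, gave 2057 and 2276 in MMN, 2076, 1875 and 2106 in MLN, and 1067, 1605 and 1596 in ILN. All its mature pools lay above the ILN pools, with log2 differences of 0.63 in MMN (adjusted p = 0.0664) and 0.53 in MLN (adjusted p = 0.0724) against ILN. The MMN difference of ACX1 passed among the 11373 brightest probe sets (adjusted p = 0.0464) and with array weights (0.0425). Without ILN 1, OPCL1 (-0.83, adjusted p = 0.0173) and AIM1 (0.84, adjusted p = 0.0103) were called in MLN against ILN, and AIM1 in MMN against ILN (0.77, adjusted p = 0.0306).

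Among the genes of jasmonate conjugation and inactivation, 6 of 11 were measured, and 3 were lower in MLN than in ILN, beside 11.5% of all probe sets, and 2 in MMN than in ILN, beside 8.86%. Being measured could depend on change here as well, so these shares are not like for like. ST2A, a sulfotransferase that acts on hydroxylated jasmonate, gave 228 and 952 in MMN, 365, 285 and 536 in MLN, and 1803, 5303 and 4439 in ILN. All its ILN pools exceeded all mature pools, as they did for MYB24. ST2A fell by 3.19 on the log2 scale in MLN against ILN (SE 0.51, adjusted p = 0.00101). In MMN against ILN the difference was -2.91 (SE 0.57, adjusted p = 0.00442), with -1.87 without MMN 1 (adjusted p = 0.0561) and -3.94 without MMN 2.

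AT5G05600, a 2OG-Fe(II) oxygenase family gene, gave 235 and 511 in MMN, 131, 127 and 68.7 in MLN, and 580.4, 949 and 1074 in ILN. Its 3 nectary types did not overlap, with MMN between the other two. It was 8.03-fold lower in MLN than in ILN (95% interval of the log2 difference -3.77 to -2.24, adjusted p = 0.000151). Against ILN, the MMN difference was -1.28 (adjusted p = 0.0417), a call that was lost when any one of MLN 1, MLN 2, ILN 2, ILN 3 or MMN 1 was left out (largest adjusted p 0.377, with -0.72, without MMN 1). Against MLN it was 1.73 higher in MMN on the log2 scale with an adjusted p of 0.0874, and without ILN 1 that p was 0.0281.

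AT2G38240 was -1.38 in MLN against ILN (adjusted p = 0.0420), a call lost without any one of the MLN pools, ILN 2 or ILN 3, with differences of -1.07 to -1.65 over the arrays left out. ILL6, AT3G11180 and JRG21 were not called in any comparison. In the list of methyl ester formation and cleavage, which holds relatives of JMT, only BSMT1 was measured, a methyltransferase for benzoic and salicylic acid. It gave 28.1 to 52.9 over the 8 arrays, below the median of every array, and was not called, except in MLN against ILN without ILN 1 (0.56, adjusted p = 0.0480).

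Of the receptor, repressor and MYC genes, 4 of 19 were measured. JAZ7, a JAZ repressor whose own transcript is known to rise with jasmonate, gave 83.6 and 104 in MMN, 63.2, 79.5 and 38.9 in MLN, and 251, 370.1 and 503 in ILN. Its ILN pools lay above all mature pools. JAZ7 was 6.21-fold lower in MLN (log2 -2.63, SE 0.31, adjusted p = 0.000162) and 3.87-fold lower in MMN (log2 -1.95, SE 0.35, adjusted p = 0.00268) than in ILN. The MMN over MLN difference of 0.68 was not called (adjusted p = 0.742).

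JAZ12, a second JAZ gene, had bright signals of 1470.0 to 3337 on all arrays. Both its MMN pools lay above all ILN pools, and the difference of 0.69 was not called (adjusted p = 0.0913), but it was with the replicate block (0.86, adjusted p = 0.0155) and without ILN 3 (0.88, adjusted p = 0.0432). MYC3 and MYC4 encode bHLH factors that JAZ proteins hold back. MYC3 was not called, except in MLN against ILN without MLN 2 (0.83, adjusted p = 0.0241). MYC4 was at 33.9 to 45.8 in MLN and 21.0 to 31.5 in ILN, signals near the low end of the arrays. Its log2 difference of 0.61 in MLN against ILN (adjusted p = 0.0344) was lost without any one of MLN 2, MLN 3, ILN 1, ILN 2, MMN 1 or MMN 2, and with a new quantile normalization it was 0.41 with an adjusted p of 0.214. MYC4 was at 0.46 in MMN against ILN (adjusted p = 0.150), and at 0.58 with the replicate block (adjusted p = 0.0461).

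Of the other stamen MYB factors and the genes that act before them, 1 of 8 was measured. MYB21 was not analysed here because the annotation used assigned no probe set to it alone, although the paper reports an ATH1 signal for it. The measured gene was RGL1, a DELLA protein that restrains gibberellin responses. RGL1 gave 111 and 133 in MMN, 120.0, 73.9 and 110 in MLN, and 480.1, 1297 and 1324 in ILN. Its mature pools overlapped and all lay far below the ILN pools, the course that MYB24 had. The log2 difference was -3.24 in MLN against ILN (SE 0.36, adjusted p = 0.000110) and -2.95 in MMN against ILN (SE 0.40, adjusted p = 0.000518).

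Of the response genes and MYB targets, 4 of 10 were measured and none was called. THI2.1 and PDF1.2, defence genes that jasmonate induces, were dim on all arrays, at 28.4 to 58.3 for THI2.1 and 16.2 to 23.5 for PDF1.2. The terpene synthase family gene AT5G44630 was bright on all arrays (11173 to 16125), and so was AT3G25810, annotated as a putative myrcene or ocimene synthase (6372 to 12487). The log2 differences of the 4 over the 3 comparisons ran from -0.30 for PDF1.2 in MMN against ILN to 0.36 for THI2.1 in MMN against MLN.

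**Figure D3:**
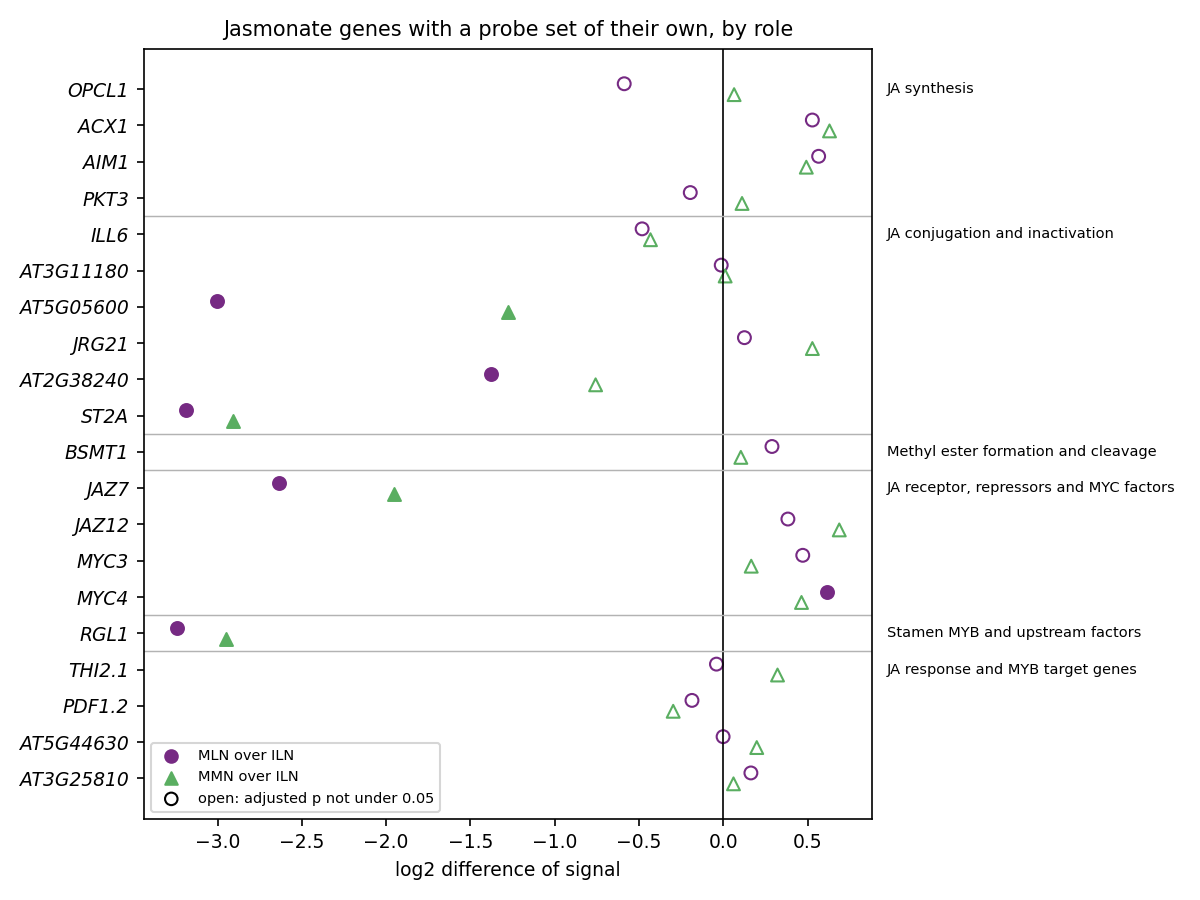
Log2 differences of the 20 measured jasmonate genes in MLN over ILN (circles) and MMN over ILN (triangles), grouped by role, filled where the limma adjusted p is under 0.05. ST2A, AT5G05600, JAZ7 and RGL1 are filled on the left in both comparisons, and MYC4 is the one filled point right of 0.

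To place MYB24 and MYB57 among their family, genes with a MYB number as symbol were listed, a list drawn up after the arrays had been seen. Of 115 such genes 11 had a probe set of their own in the annotation used, which drew in part on the study's own gene tables. Some of those tables list genes by fold change, so a MYB gene could be measured because it changed. Whether these 11 stand for the family was not tested. In MLN against ILN 4 of the 11 were higher, MYB57, MYB7, MYB32 and MYB115, and MYB24 was the only one lower, beside 12% of all probe sets higher and 11.5% lower. In MMN against ILN 4 were higher, MYB57, MYB5, MYB32 and MYB115, and MYB24 was again the only one lower, beside 9.97% higher and 8.86% lower. In MMN against MLN only MYB7 was called, beside 0.73% of all probe sets.

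MYB7 had the course of JMT, with 197 and 207 in MMN, 1366, 913 and 967 in MLN, and 123, 252 and 179 in ILN. Its MLN pools stood clear of all others, and its log2 difference in MLN against ILN was 2.59 (adjusted p = 6.65e-05). MYB32, a relative of MYB7 in the group of MYB repressors of phenylpropanoid genes, had the course of MYB57, with log2 differences of 2.46 in MLN (adjusted p = 5.20e-05) and 2.41 in MMN (adjusted p = 0.000151) against ILN. MYB5 was weaker, at 0.87 in MMN against ILN (adjusted p = 0.0357), and its call was lost when any one of MLN 1, ILN 3, MMN 1 or MMN 2 was left out.

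MYB24 lies next to another MYB gene on chromosome 5, MYB115, in the TAIR10.1 gene order. MYB115 gave 2263 and 1847 in MMN, 1099, 2257 and 1056 in MLN, and 54.3, 27.1 and 26.5 in ILN. Its mature pools were all far above its ILN pools, which lay in the range of dim signals, so that the 2 neighbours changed in opposite directions. The log2 difference was 5.35 in MLN (SE 0.34, adjusted p = 3.21e-06) and 5.91 in MMN (SE 0.38, adjusted p = 3.50e-06) against ILN. Because the ILN signals of MYB115 lie near background, the size of these differences depends on the low end of the scale, and with 20 added before log2 they were 4.68 in MLN and 5.24 in MMN. On its other side AT5G40340 gave 246 to 361 over all arrays and was not called.

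The gene model of MYB57 overlaps that of AT3G01520 at one end. AT3G01520 gave 2117 and 1764 in MMN, 1898, 1370 and 1945 in MLN, and 1104, 1067 and 866 in ILN. It was higher in both mature types, as MYB57 was, but by less, at 0.94 in MMN (adjusted p = 0.0121) and 0.77 in MLN (adjusted p = 0.0159) against ILN on the log2 scale. The MMN call was lost without MMN 1 (adjusted p = 0.129) or MMN 2 (0.0548), and the MLN call without MLN 1 (0.0663) or ILN 3 (0.061). The gene on the other side, DRH1, was not analysed here.

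JMT is followed by AT1G19650, which gave 182 and 272 in MMN, 530.0, 512 and 1145 in MLN, and 272, 339 and 467 in ILN. Its MLN pools were above all others, as for JMT, and MLN 3 was the highest for both genes. Neither the difference of -1.61 in MMN against MLN (95% interval -2.40 to -0.81, adjusted p = 0.0863) nor that of 0.95 in MLN against ILN (95% interval 0.24 to 1.66, adjusted p = 0.0534) was called. On the other side AT1G19620 was dim, at 33.6 to 54.0, and was not called.

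**Figure D4:**
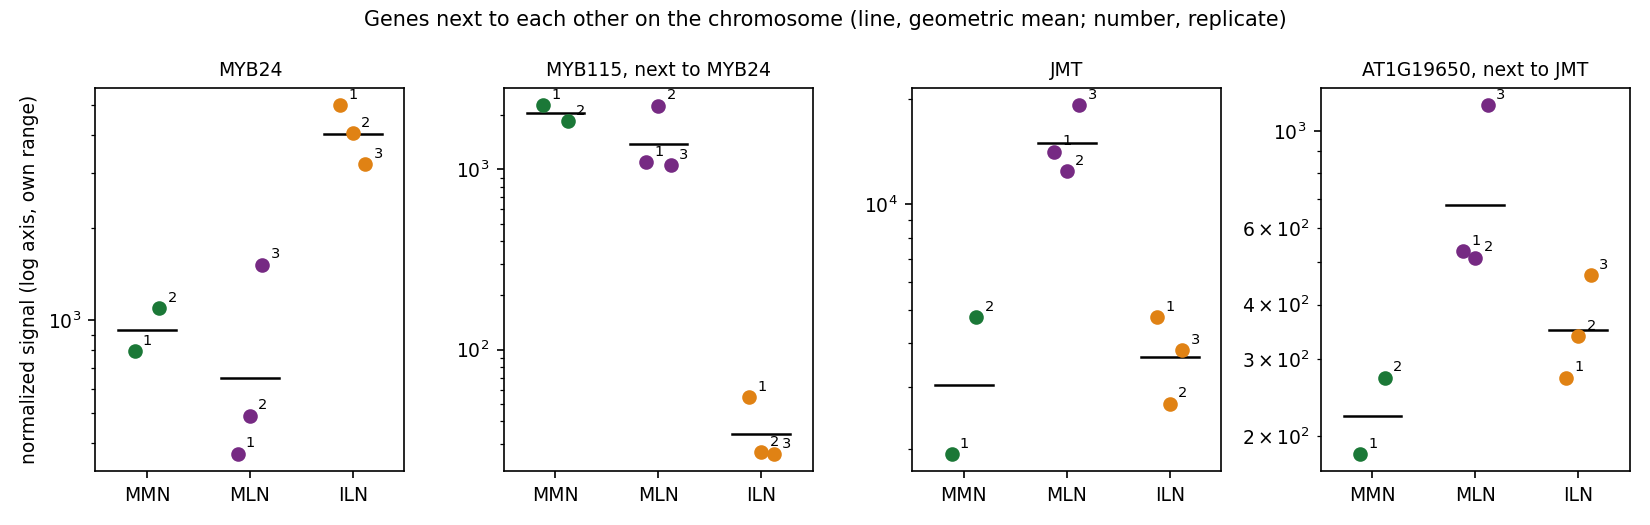
Normalized signal (log axes, each with its own range) of MYB24 beside its neighbour MYB115 and of JMT beside its neighbour AT1G19650, by array, with a line at the geometric mean and replicate numbers. MYB115 is at 26.5 to 54.3 in ILN, where MYB24 is highest, and AT1G19650 is highest in MLN, as JMT is.

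The genes whose log2 signals went most closely with each of the 3 over the 8 arrays were taken from 6863 genes with a mean signal of at least 100. The arrays fall into 3 nectary types, so a high correlation mostly states a like order of the types, and it is given as a description. For MYB24 they were AT5G36230 (Pearson r = 0.988), TBL39 (0.986), of the family that adds acetyl groups to wall polymers, and CHL (0.978), a chloroplastic lipocalin. All 3 were lower in MLN than in ILN, by -0.84 for AT5G36230, -1.92 for TBL39 and -1.72 for CHL on the log2 scale, each less than MYB24. On MLN 3 they were highest of the MLN arrays, as MYB24 was.

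For MYB57 they were BBX19 (r = 0.992), a B-box protein, AAE11 (0.991), an acyl-activating enzyme, and CDF3 (0.990), a DOF factor linked to flowering time. These 3 were higher in MLN than in ILN, by 3.21 for BBX19, 4.48 for AAE11 and 3.28 for CDF3 on the log2 scale, and higher in MMN than in ILN as well. They had ILN 2 as their brightest ILN array, as MYB57 did.

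JMT had fewer close companions. Only 14 genes exceeded r = 0.9 with JMT, while 325 did with MYB57 and 238 with MYB24. Of all probe sets, 0.158% were called lower in MMN than in MLN, while 23.6% were called in MLN against ILN. Whether the counts of companions reflect how common each course is was not tested. The closest to JMT was AT4G14720 (r = 0.949). Its synonyms PPD2 and TIFY4B place it in the TIFY family, which also holds the JAZ proteins. Its signal moved little, with 263.7 ± 30.4 in MMN, 304.9 ± 17.6 in MLN and 254.0 ± 9.20 in ILN, and it was not called. AT1G67865 (r = 0.941) was higher in MLN than in ILN (log2 1.62, adjusted p = 0.000251) and lower in MMN than in MLN (-1.96, adjusted p = 0.00241). AT5G38300 (r = 0.937) was higher in MLN than in ILN (0.98, adjusted p = 0.00319), and in MMN it was -0.87 against MLN (adjusted p = 0.112).

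**Figure D5:**
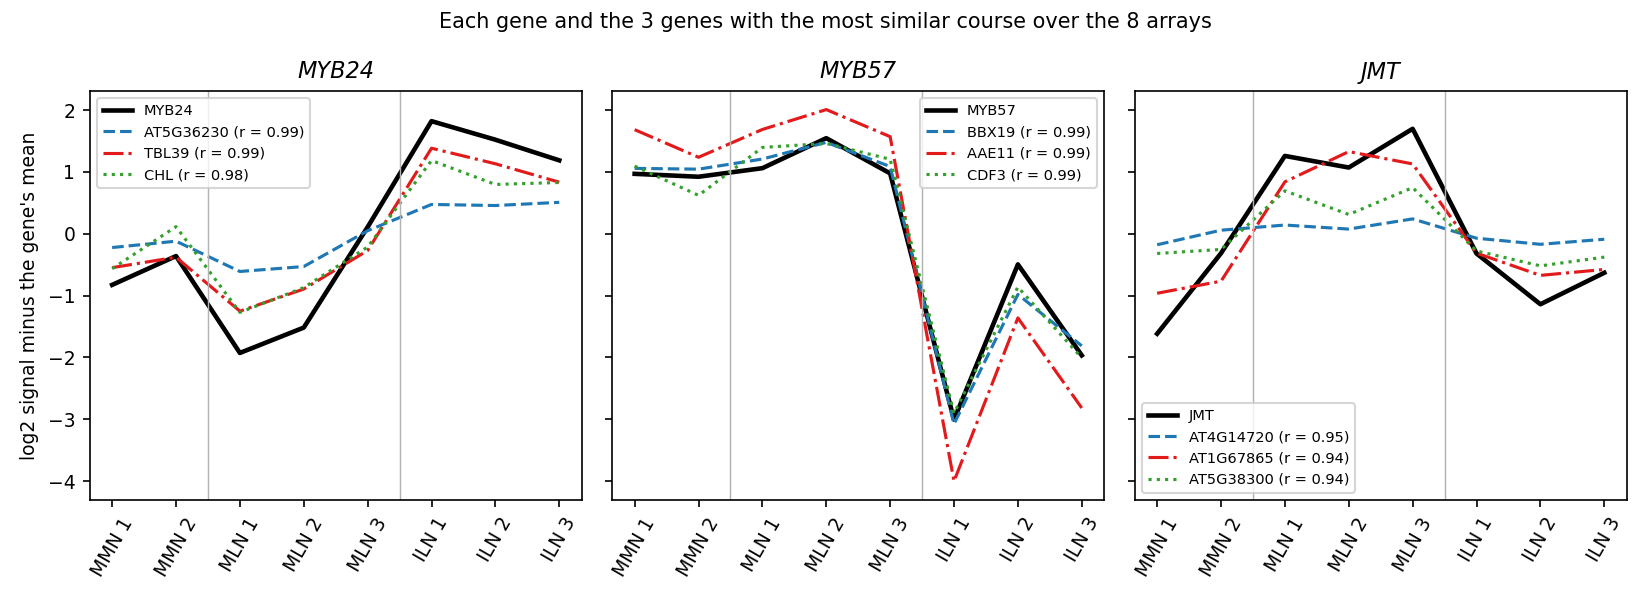
Log2 signal minus the gene's own mean on the 8 arrays, ordered MMN, MLN and ILN, for each of the 3 genes (black) and its 3 closest genes. Lines join the arrays to guide the eye, since replicates have no order, and the companions of JMT span a narrower range than JMT itself.

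MYB24 and MYB57 are known from stamens, so markers of neighbouring floral tissue were read beside them. Of 10 anther and tapetum markers 2 were measured, AT5G07230 and AMS, and both were below the 25th percentile of their array (31.5 to 41.9) on all 8, with sums of 44.1 to 51.1 in MMN, 52.5 to 59.4 in MLN and 42.6 to 50.0 in ILN. Of 8 pollen markers only AT5G45880 was measured, at 148 and 579 in MMN, 186 to 303 in MLN and 102 to 157 in ILN. It was higher on MMN 2 than on MMN 1, as were JMT, MYB24 and ST2A, and its part in these values was not tested. The organ identity gene PI, 1 of 2 petal and stamen identity genes, was at 61.1 to 86.8 in MMN, 66.5 to 106 in MLN and 49.1 to 56.1 in ILN, and was not called.

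RCA, the 1 measured gene of 5 green tissue markers, was the only tissue marker called. It moved with MYB57 and against MYB24, at 0.96 in MMN (adjusted p = 0.0307) and 0.82 in MLN (adjusted p = 0.0328) against ILN on the log2 scale. Its sums were 6171 to 6173 in MMN, 4521 to 6444 in MLN and 2146 to 4108 in ILN, and its part in the results was not tested. Carpel and ovule markers (INO and SPT of 3) and the abscission zone marker HSL2 (1 of 4) were not called. In whole nectaries a lower signal can come from fewer cells with the transcript or from less of it in each cell, which cannot be told apart.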

How the data were processed

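The authors' deposited signal intensity values come from Affymetrix ATH1 arrays, with 22810 probe sets on 8 arrays. The authors applied quantile normalization and RMA in the Refiner module of Genedata Expressionist, with public reference arrays (not used here) in the same run. The Analyst module then set the median of each array to 100 on a linear scale. Software versions were not given in the sources used here. Dim signals hold background, and precision is limited by the number of arrays.

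Here 64 control probe sets were left out and log2 signals of 22746 were fitted with limma 3.58.1 (R 4.3.3), with 1 mean for each nectary type, all 8 arrays and a variance trend. Calls were made at a Benjamini-Hochberg adjusted p of 0.05 across all of them. The procedure was tested on simulated data. A probe set names a gene where the platform annotation or the study's additional tables give exactly 1 locus, which 14291 do (798 through those tables only), while 559 have several and 7896 none. Some of those additional tables list genes by fold change. Symbols and gene order came from a TAIR10.1 reference table. Figures were drawn with Python 3.11.15 and matplotlib 3.10.9.

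The members and the lists were chosen with earlier results of these data known. Named were the 3 genes, up to 4 called genes per jasmonate list and those needed to account for it, chromosomal neighbours, the 3 genes closest to each in course, and tissue markers; MYB relatives were added later. Several jasmonate genes are given by locus because the reference table lacks their list symbols.

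The labels number the replicates. Deviations from the group means correlated at 0.338, 0.241 and 0.211 between MLN and ILN arrays of the same number. For such arrays they correlated at 0.072 and -0.020 between MLN and MMN and at -0.027 and -0.071 between ILN and MMN. The numbers may thus pair MLN with ILN. The main fit did not use this pairing, so its intervals and p-values treat all arrays as unpaired, and the replicate block was run as an alternative. Alternatives were a new quantile normalization, median centring, 20 added before log2, the 11373 brightest probe sets, no variance trend, array weights, only the groups compared, the replicate block, the methods' t-test of the linear values, adjusted or not, and each array left out.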

Additional observations from a re-analysis of the deposited data

How the results depend on the processing

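The directions of the 3 genes held under all settings run except for JMT in MMN against ILN, never called, which turned to 0.38 without MMN 1. With the methods' t-test and Benjamini-Hochberg adjustment none of the members' calls remained. In MLN against ILN the differences were -2.36 for MYB24 (adjusted p = 0.0772), 2.68 for MYB57 (0.071) and 2.02 for JMT (0.0742), in MMN against MLN -2.19 for JMT (0.636), and in MMN against ILN -2.11 for MYB24 (0.133) and 2.41 for MYB57 (0.0915). In MLN against ILN that test called 773 probe sets, and 6423 without adjustment, where limma called 5357. In MMN against MLN it called 1 and 1663, where limma called 166, and in MMN against ILN 346 and 5575, where limma called 4284.

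With each array left out in turn, MLN against ILN gave -3.23 to -2.21 for MYB24, 2.43 to 3.68 for MYB57 and 1.82 to 2.23 for JMT. MMN against MLN gave 0.11 to 1.13 for MYB24, -0.36 to -0.07 for MYB57 and -2.96 to -1.66 for JMT, and MMN against ILN gave -2.34 to -1.87, 2.18 to 3.43 and -0.92 to 0.38 in the same order of genes. Leaving out an MMN array leaves 1, assumed to vary like the other groups. Without MMN 2 the calls in MMN against MLN dropped to 41, and without ILN 1 there were 308. In MMN against ILN they were 2123 without MMN 1 and 1762 without MMN 2.

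The count of jasmonate genes called was 4 to 8 in MLN against ILN, 0 to 1 in MMN against MLN and 2 to 5 in MMN against ILN over the arrays left out, and without MMN 1 only JAZ7 and RGL1 remained in the last. With the methods' t-test it was 0 in MLN against ILN and 0 in MMN against ILN after adjustment, and 0 in MMN against ILN without it. In MMN against MLN it was 1 with array weights (AT5G05600) and 1 with the unadjusted test (OPCL1).

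With the replicate number as a block no member's call changed. The values were -2.62, 3.02 and 2.04 for MYB24, MYB57 and JMT in MLN against ILN. There 6 jasmonate genes were called, beside 6317 of 22746 probe sets, where the main fit called 5357. The block also gave 6 jasmonate genes in MMN against ILN, 4 lower and 2 higher (JAZ12 and MYC4), beside 4235 of 22746 probe sets. Without the block 4 lower and 0 higher were called. In MMN against MLN the block moved the count of calls to 275, and array weights moved it to 575. A new quantile normalization moved the median of all differences in MLN against ILN to 0.05 against 0.17, and in MMN against ILN to 0.01 against 0.11. The share of calls that were higher was then 45% against 51.1% in MLN against ILN, and no member's call changed. Of 341 values of called genes other than the members under another setting, 283 kept their call, 58 lost it and 0 turned sign.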
